A study of Mus musculus with 6 samples.

Results

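The genes described here encode the machinery that moves proteins through the secretory pathway and between the membrane compartments of the cell. A pattern of gene symbols chose them, set with earlier results of these data known: signal recognition and translocon proteins (Srp, Sec61, Sec62, Sec63, Ssr), signal peptidase subunits (Spcs, Sec11), coat proteins of the COPII and COPI vesicles, Arf and Rab GTPases, cargo receptors (Tmed, Lman, Kdelr), golgins, TRAPP tethers, syntaxins and VAMPs, clathrin adaptor subunits and Vps proteins. The symbol pattern matched 169 genes of the 7774 named genes measured, through 252 of 11097 probes. For a gene with several probes, as 57 of the 169 had, the brightest probe stood for the gene.

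The cells were endoderm derived from R1 mouse embryonic stem cells carrying Sox17-GFP, a reporter for an endodermal transcription factor, and their messenger RNA was read on Illumina bead arrays, 1 colour each. Activin A and Wnt3A were given to all cells for 6 days, and the cells were then sorted for the reporter. One group was then passaged 6 times on a mouse mesenchyme called mesenchyme 2, another 6 times on mesenchyme 1, and the third (P0) was taken unpassaged, with gelatin as its culture condition. Both passaged groups were again sorted for Sox17-GFP before RNA was extracted, and the labels do not say what either mesenchyme is. Each group has 2 arrays, which the series calls technical duplicates, so each stands for 1 culture. The p-values below therefore cover the spread between arrays and not the spread between cultures, and passage and mesenchyme cannot be told apart when a P6 group is set against P0.

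Proteins destined for export or for membranes are guided to the endoplasmic reticulum by the signal recognition particle, threaded through the Sec61 channel and trimmed by signal peptidase. COPII-coated vesicles carry them towards the Golgi, COPI-coated vesicles return escaped residents, and receptors such as the KDEL receptors and the p24 (Tmed) proteins sort the cargo. Rab GTPases, tethers and SNARE proteins then direct and fuse vesicles at their target membranes, while clathrin adaptors and Vps proteins serve endosomes and lysosomes. Parietal endoderm, an extraembryonic cell type, is known for secreting the thick basement membrane of laminin and type IV collagen that lines the yolk sac.

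The arrays had similar overall signal. Median intensities were 134.9 and 135.5 for mesenchyme 2, 127.8 and 127.6 for mesenchyme 1 and 128.3 and 129.8 for P0, on the deposited linear scale. Log2 intensities of duplicates correlated at 0.9936, 0.9934 and 0.9939 in the same order of groups. The median over genes of the mean intensity was 233 for the 169 genes and 155 for all 8396 features, the named genes plus unnamed probes. Mean intensity was under 50 for 21 of the 169 genes (12.4%) and for 1916 features (22.8%), and no detection call was used, so the lowest values may lie near background.

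The cultures differed in markers of their cell type. All 10 parietal endoderm markers listed were measured, and their summed intensity was 33886 and 34878 on mesenchyme 2, 5694 and 5510 on mesenchyme 1 and 5381 and 5474 at P0. For visceral endoderm, the sums over 5 of 6 listed markers were 6400 and 6026 on mesenchyme 2, 629 and 620 on mesenchyme 1, and 986 and 1034 at P0. All 10 parietal and all 5 visceral markers were at least 2-fold higher on mesenchyme 2 than in either other group. On mesenchyme 1 the sums covered moves in both directions from P0. The parietal markers Lama1, Srgn and Pdgfra were at least 2-fold higher there (log2 1.23, 1.27 and 1.06) and Sparc lower (-1.07). Of the visceral markers, Afp and Amn were at least 2-fold higher (1.32 and 1.76) and Rbp4 lower (-1.79). With 16 added to every value Pdgfra and Afp gave 0.91 and 0.94, and the mean of its probes gave Sparc -0.54. Gkn1 and Gkn2, secreted proteins of the stomach lining, summed to 3545 and 3544 on mesenchyme 2, 148 and 138 on mesenchyme 1 and 96.8 and 107 at P0. Over the 3 of 10 listed mesenchyme and fibroblast markers that were measured (Thy1, Twist1 and Acta2), the sums were 4817 and 4643, 4109 and 4585, and 3121 and 3448, in the same order. Acta2 alone read 4749 and 4576, 4057 and 4554, and 3058 and 3373, so the sums follow this 1 gene. Log2 differences from P0 for Thy1 and Twist1 were 0.09 and -0.17 on mesenchyme 2 and -0.81 and -0.75 on mesenchyme 1. Of these only Thy1 on mesenchyme 1 had an adjusted p under 0.05. Sox17 itself read 722 and 680 on mesenchyme 2, 83.2 and 80.5 on mesenchyme 1 and 103 and 90.6 at P0. The 4 of 7 listed definitive endoderm markers that were measured (Sox17, Gata4, Gata6 and Cdh1) summed to 3256 and 3307, 1464 and 1621, and 1178 and 1205. Gata6 alone read 1514 and 1541, 309 and 322, and 130 and 161. Cdh1 read 969 and 1049, 1062 and 1207, and 937 and 938. The higher sums on mesenchyme 2 thus follow Gata6 and Sox17 and not Cdh1. Which kind of endoderm these 4 genes stand for here was not tested. The 4 listed markers of pluripotent cells, all measured, summed to 2990 and 2833, 6225 and 5753, and 6676 and 6712, so they were lowest on mesenchyme 2. The cells on mesenchyme 2 thus carried more of the parietal and visceral endoderm markers than either other group. The part of these markers in the results below was not tested. In bulk RNA, fewer cells of a type and less RNA per cell cannot be told apart.

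Cells on mesenchyme 2 carried more transcript of much of the secretory machinery than unpassaged cells, and the gain was broad and mostly modest. Of the 169 genes, 87 rose at an adjusted p under 0.05 (51.5%, against 33.6% of all features) and 15 fell (8.88%, against 30.9%), where 64.5% of all features changed in either direction. The median log2 difference, mesenchyme 2 minus P0, was 0.31 over the 169 genes and 0.02 over all features, and the sign was positive for 132 genes (78.1%, against 51.3%). With a 2-fold limit added, 17 genes were called higher (10.1%, against 10.3% of all features) and 4 lower (2.37%, against 8.46%), 21 in all (12.4%, against 18.7%). Large rises were thus about as frequent in this machinery as on the rest of the array, and the excess lay in small rises and in the shortage of falls. Both arrays of mesenchyme 2 lay above both P0 arrays for 118 of the 169 genes (69.8%, against 43.2% of features) and below them for 32 (18.9%, against 40.2%). For the other 19 genes the arrays overlapped. Because the mesenchyme 2 arrays were slightly brighter, each array was also centred on its median. Then 77 genes rose and 20 fell at an adjusted p under 0.05, against 30.3% and 34.7% of all features.

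Mesenchyme 1 gave no such shift. Relative to P0, 40 of the 169 genes rose (23.7%, against 23.9% of all features) and 42 fell (24.9%, against 24.2%), where 48.2% of all features changed in either direction. The median log2 difference was -0.02 over the 169 genes and -0.02 over all features. With the 2-fold limit 3 genes were called (1.78%, against 5.48% of all features): Sec23a and Rab6a were higher, where 2.62% of all features were, and Vamp8 was lower, where 2.86% were. Set directly against mesenchyme 1, mesenchyme 2 had 88 genes higher (52.1%, against 35.9% of all features) and 21 lower (12.4%, against 33.8%), where 69.7% of all features differed. The median was 0.34, against 0.02 for all features. At the 2-fold limit 22 genes were higher (13%, against 13.9% of features) and 5 lower (2.96%, against 11.5%), 27 in all (16%, against 25.4%). The 2 comparisons with P0 share its arrays, and those of mesenchyme 2 enter the first and the last comparison, so the counts are not independent of each other.

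**Figure D1:**
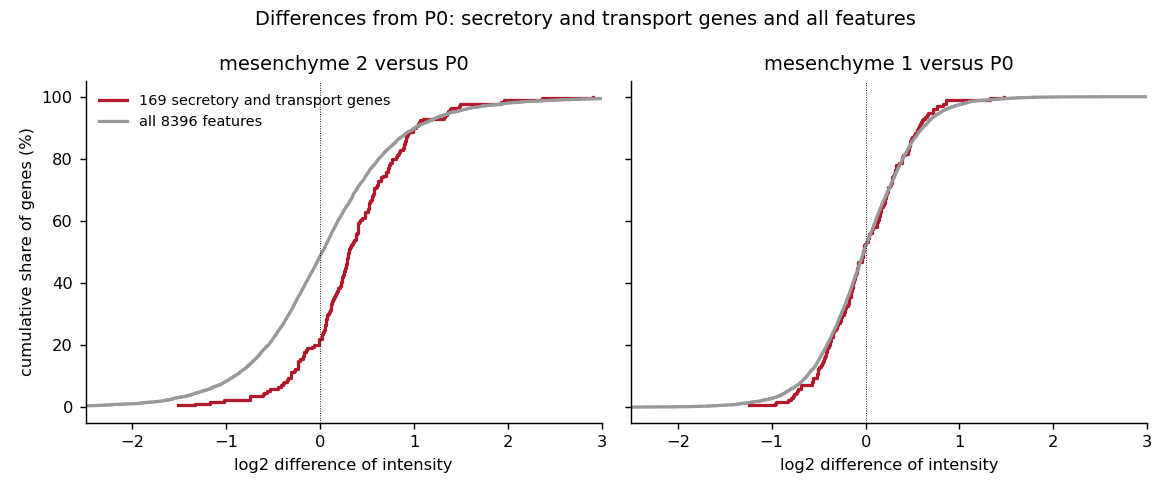
Cumulative share of genes (y axis, percent of genes) by log2 difference (x axis, log2 units), for the 169 secretory genes and for all 8396 features. The panels are mesenchyme 2 against P0 and mesenchyme 1 against P0. In the first the secretory genes lie to the right of all features, with medians of 0.31 against 0.02. In the second the curves have the same median of -0.02.

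Of 12 genes of targeting and translocation into the endoplasmic reticulum, 4 rose on mesenchyme 2 relative to P0 (33.3%, against 33.6% of all features) and 2 fell (16.7%, against 30.9%), and the median log2 difference was 0.04. Whether role groups differ from each other was not tested. In the groups below, the shares that rose on mesenchyme 2 were 58.3% for COPI and Arf genes, 90.9% for cargo receptors, 43.8% for Golgi and tethering proteins, 68.4% for SNAREs and 54.2% for Vps proteins, to be read against the same 33.6%. Falls on mesenchyme 2 are to be read against 30.9%. On mesenchyme 1, 16.7% of COPI and Arf genes rose and 41.7% fell. The same shares were 27.3% and 27.3% for cargo receptors and 37.5% and 31.2% for Golgi and tethering proteins. They were 10.5% and 31.6% for SNAREs and 33.3% and 12.5% for Vps proteins. Those on mesenchyme 1 are to be read against 23.9% and 24.2% of all features. Sec61b, the small beta subunit of the translocation channel, read 385 and 407 on mesenchyme 2, 481 and 481 on mesenchyme 1 and 861 and 752 at P0. Both P6 cultures lay below P0, without overlap. The log2 difference from P0 was -1.02 ± 0.0996 on mesenchyme 2 (limma standard error, 2 arrays a group; adjusted p = 0.000155) and -0.74 ± 0.0996 on mesenchyme 1 (adjusted p = 0.00179). A second Sec61b probe gave -1.46 ± 0.127 for mesenchyme 2. The call on the first probe sits at the 2-fold limit: it was -0.93 without P0 replicate 1 and -0.98 without mesenchyme 2 replicate 1.

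Other parts of the channel went their own way. Sec61a1, the pore-forming subunit, read 306 and 310 on mesenchyme 2, 281 and 266 on mesenchyme 1 and 258 and 259 at P0, and its rise on mesenchyme 2 was 0.25 ± 0.0845 on the log2 scale (adjusted p = 0.035). Sec63, which helps the chaperone BiP pull chains through the channel, rose by 0.92 ± 0.111 on mesenchyme 2 (adjusted p = 0.000428) and by 0.38 ± 0.111 on mesenchyme 1 (adjusted p = 0.0278). Srp72, a protein of the signal recognition particle, rose by 0.81 ± 0.0857 and 0.72 ± 0.0857 on mesenchyme 2 and mesenchyme 1. Ssr2 and Ssr3, the brightest genes of the group, gave log2 differences of 0.15 ± 0.102 and -0.01 ± 0.0898 on mesenchyme 2, and neither passed the test. Among 5 signal peptidase genes, 3 rose on mesenchyme 2 (60%, against 33.6% of all features). They were Sec11a by 0.57 ± 0.0852, Spcs1 by 0.39 ± 0.103 and Spcs2 by 0.41 ± 0.131, though a second Spcs1 probe gave 0.10 ± 0.105. Spcs3 had a difference of -0.24 ± 0.106 (adjusted p = 0.0882).

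Of 10 genes of the COPII coat, which buds vesicles from the endoplasmic reticulum, 6 rose and 0 fell on mesenchyme 2 (median 0.45), and 6 rose and 1 fell on mesenchyme 1 (median 0.31), each relative to P0. The rises were 60% on either mesenchyme, against 33.6% and 23.9% of all features. Sec23a, an inner coat subunit that stimulates the GTPase Sar1, read 190 and 186 on mesenchyme 2, 221 and 230 on mesenchyme 1, and 97.2 and 83.2 at P0. Every P6 array lay above every P0 array. The log2 difference from P0 was 1.06 ± 0.103 on mesenchyme 2 (adjusted p = 0.000153) and 1.33 ± 0.103 on mesenchyme 1 (adjusted p = 0.000349), and between the P6 cultures it was -0.26 ± 0.103 (adjusted p = 0.0566). The mesenchyme 2 value was 0.95 without P0 replicate 2 and 1.00 with each array centred on its median, just under the limit. Its paralogue Sec23b, read by another probe, gave -0.34 ± 0.161 on mesenchyme 2 and 0.28 ± 0.161 on mesenchyme 1, and neither passed the test. A second Sec23b probe gave 0.39 ± 0.158 and 0.66 ± 0.158.

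Sec24 proteins choose COPII cargo, and 3 were measured. Sec24d read 272 and 229 on mesenchyme 2, 224 and 229 on mesenchyme 1 and 118 and 133 at P0. It rose by 0.99 ± 0.116 on mesenchyme 2 (adjusted p = 0.000357) and by 0.85 ± 0.116 on mesenchyme 1 (adjusted p = 0.00183), just short of 2-fold in the first. Sec24c rose on mesenchyme 2 (0.52 ± 0.0828) and gave -0.09 ± 0.0828 on mesenchyme 1, and the P6 cultures differed by 0.61 ± 0.0828 (adjusted p = 0.000534). Sec24b gave 0.22 ± 0.105 and 0.31 ± 0.105, of which the second passed the test at an adjusted p of 0.0479. Sar1a, the GTPase that starts coat assembly, rose on both (0.85 ± 0.104 and 0.55 ± 0.104), whereas its paralogue Sar1b gave 0.06 ± 0.0891 on mesenchyme 2 and fell by 0.35 ± 0.0891 on mesenchyme 1 (adjusted p = 0.0173). Sec13, part of the outer COPII cage and also of nuclear pores, did not pass the test in either comparison with P0 (0.26 ± 0.137 and -0.17 ± 0.137).

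The COPI coat, which carries material back from the Golgi, and the Arf GTPases that recruit it rose in 7 of 12 genes on mesenchyme 2, with 0 falls (median 0.31). On mesenchyme 1, 2 rose and 5 fell (median -0.19). Copb1, a beta subunit, read 73.2 and 70.7 on mesenchyme 2, 44.5 and 39.4 on mesenchyme 1 and 33.9 and 24.3 at P0. It was the only gene of this group called on mesenchyme 2, by 1.32 ± 0.161 (adjusted p = 0.000429), at intensities low enough that adding 16 to every value brought it to 0.97. The called share of the group was 8.33%, against 18.7% of all features. Copa, the alpha subunit, read 1103 and 1086, 885 and 882, and 588 and 582 in the same order, and rose by 0.90 ± 0.082 and 0.60 ± 0.082. Copb2, the beta-prime subunit, rose by 0.62 ± 0.0898 on mesenchyme 2 (adjusted p = 0.000981) and gave 0.21 ± 0.0898 on mesenchyme 1 (adjusted p = 0.0915). Arf1, the GTPase that brings COPI to Golgi membranes, rose by 0.44 ± 0.0925 on mesenchyme 2 and gave -0.25 ± 0.0925 on mesenchyme 1. Those P6 values differed by 0.69 ± 0.0925 (adjusted p = 0.000516).

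Cargo and retrieval receptors had the highest median of the 11 role groups on mesenchyme 2, at 0.72, with 10 of 11 rising, 3 of them called, and 0 falling. The called rises were 27.3% of the group, against 10.3% of all features. On mesenchyme 1 the median was -0.02, with 3 rises and 3 falls. Kdelr3, a receptor that returns escaped residents with a KDEL-type tail to the endoplasmic reticulum, read 1092 and 1053 on mesenchyme 2, 120 and 123 on mesenchyme 1 and 213 and 203 at P0. The 3 groups were fully separated, with mesenchyme 2 above P0 and mesenchyme 1 below it. Kdelr3 rose 5.15-fold on mesenchyme 2 (log2 2.37 ± 0.0856, adjusted p = 3.32e-06) and fell by 0.77 ± 0.0856 on mesenchyme 1 (adjusted p = 0.000996), and the P6 cultures differed 8.80-fold (log2 3.14 ± 0.0856, adjusted p = 1.41e-06). Its paralogue Kdelr2 moved less: 791 and 803 on mesenchyme 2, 537 and 513 on mesenchyme 1 and 466 and 446 at P0, a rise of 0.81 ± 0.0855 on mesenchyme 2.

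The p24 proteins, which sort cargo between the endoplasmic reticulum and the Golgi, differed among themselves. Tmed3 read 156 and 167 on mesenchyme 2, 36.4 and 41.5 on mesenchyme 1 and 56.2 and 58.9 at P0, and like Kdelr3 it had the P6 cultures on opposite sides of P0. Its log2 difference from P0 was 1.49 ± 0.102 on mesenchyme 2 (adjusted p = 3.65e-05) and -0.57 ± 0.102 on mesenchyme 1 (adjusted p = 0.00494). Tmed9, the brightest of the 169 genes on mesenchyme 2, read 3834 and 3691, 1808 and 1642, and 2481 and 2600 on mesenchyme 2, mesenchyme 1 and at P0. It too lay on both sides of P0, by 0.57 ± 0.0929 and -0.56 ± 0.0929. Tmed8 rose on both mesenchymes, by 1.09 ± 0.111 and 0.67 ± 0.111, with 0.73 and 0.06 on its second probe. Tmed10 rose by 0.89 ± 0.0834 on mesenchyme 2 and gave -0.15 ± 0.0834 on mesenchyme 1. Tmed2 passed no test, with 0.07 ± 0.142 and 0.12 ± 0.142. Lman1, the lectin known for carrying coagulation factors out of the endoplasmic reticulum, rose on both, by 0.41 ± 0.111 and 0.42 ± 0.111.

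Promoter sequences were examined for short elements known from the response to load on the endoplasmic reticulum, because genes of successive steps rose together on mesenchyme 2. RefSeq promoter windows of mouse build GRCm38.p6, 250 bases before to 50 after each annotated start, were found for 136 of the 169 genes. The 8-base unfolded protein response element, TGACGTGG, known as a binding sequence of the transcription factor XBP1, was searched on both strands. It was in a window of 7 of the 136 genes (5.15%), against 67 of 6378 measured genes (1.05%) and 193 of 27025 genes in the table (0.714%). Among the secretory genes outside the symbol pattern, described at the end, it was in 1 of 77 (1.3%), near the share of measured genes. That gene, Gbf1, which activates Arf1, gave 0.18 ± 0.0919 on mesenchyme 2 (adjusted p = 0.132). The 7 genes are Kdelr3, Copb1, Copb2, Sec23a, Sec24d, Arf1 and Stx5a. Each rose on mesenchyme 2 relative to P0, where 51.5% of the 169 genes and 33.6% of all features rose. Of the 7, 3 (Kdelr3, Copb1, Sec23a) passed the 2-fold limit, where 10.1% of the 169 genes and 10.3% of all features were called higher. With 16 added to every value Copb1 gave 0.97 and Sec23a 0.95, under the limit. On mesenchyme 1 the log2 differences from P0 were 1.33 for Sec23a, 0.85 for Sec24d, 0.54 for Copb1 and 0.21 for Copb2. For Stx5a, Arf1 and Kdelr3 they were -0.13, -0.25 and -0.77. Whether measured genes with the element rose more often than others was not tested. Of the 136 genes, 0 held the longer ER stress element (CCAAT and CCACG with 9 bases between them, both strands), which was in 37 of the 27025 genes (0.137%). The cAMP response element TGACGTCA, which differs in its last bases, was in 4 of 136 (2.94%), against 3.89% of measured genes and 2.03% of all. A match describes letters in a window and does not show that a factor binds there.

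The sequences of the 7 genes are shown since they span successive steps of transport: coat proteins of COPII (Sec23a, Sec24d) and COPI (Copb1, Copb2), the GTPase that recruits COPI (Arf1), a retrieval receptor (Kdelr3) and a Golgi SNARE (Stx5a). Each is written 5′ to 3′ in the direction of its gene, with the element in capitals, as TGACGTGG on the gene's strand or CCACGTCA on the opposite strand. Kdelr3 is given as its whole window (chr15:79516158-79516457, plus strand). The others show the element with up to 40 bases on each side: Copb1 (chr7:114254661-114254748, minus strand), Copb2 (chr9:98563684-98563771, plus), Sec23a (chr12:59011968-59012051, minus), Sec24d (chr3:123267430-123267517, plus), Arf1 (chr11:59228199-59228286, minus) and Stx5a (chr19:8741393-8741473, plus), whose window holds the element on both strands. Relative to the annotated start, the element begins 30 bases before it in Kdelr3, 28 in Copb1, 26 in Sec24d and 7 in Copb2. It begins 6 bases after the start in Sec23a and 9 and 39 after it in Stx5a. In Arf1 it lies 84 bases before one annotated start and 21 after another.
Kdelr3: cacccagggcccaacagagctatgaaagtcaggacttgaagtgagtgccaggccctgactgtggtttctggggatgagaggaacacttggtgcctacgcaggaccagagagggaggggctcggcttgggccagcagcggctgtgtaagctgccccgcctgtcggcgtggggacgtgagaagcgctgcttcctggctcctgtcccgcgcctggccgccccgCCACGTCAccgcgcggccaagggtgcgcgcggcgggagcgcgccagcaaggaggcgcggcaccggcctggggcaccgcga
Copb1: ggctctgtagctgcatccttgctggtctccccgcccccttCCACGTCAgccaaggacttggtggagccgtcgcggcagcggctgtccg
Copb2: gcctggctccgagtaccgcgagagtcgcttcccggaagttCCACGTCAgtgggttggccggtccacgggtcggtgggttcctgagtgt
Sec23a: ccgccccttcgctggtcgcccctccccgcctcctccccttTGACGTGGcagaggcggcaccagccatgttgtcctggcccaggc
Sec24d: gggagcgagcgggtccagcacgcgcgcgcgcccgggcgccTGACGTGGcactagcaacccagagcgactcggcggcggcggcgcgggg
Arf1: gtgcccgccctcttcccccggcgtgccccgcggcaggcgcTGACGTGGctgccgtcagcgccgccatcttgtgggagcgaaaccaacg
Stx5a: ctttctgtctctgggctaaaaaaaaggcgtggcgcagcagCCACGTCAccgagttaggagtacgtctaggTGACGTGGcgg

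**Figure D2:**
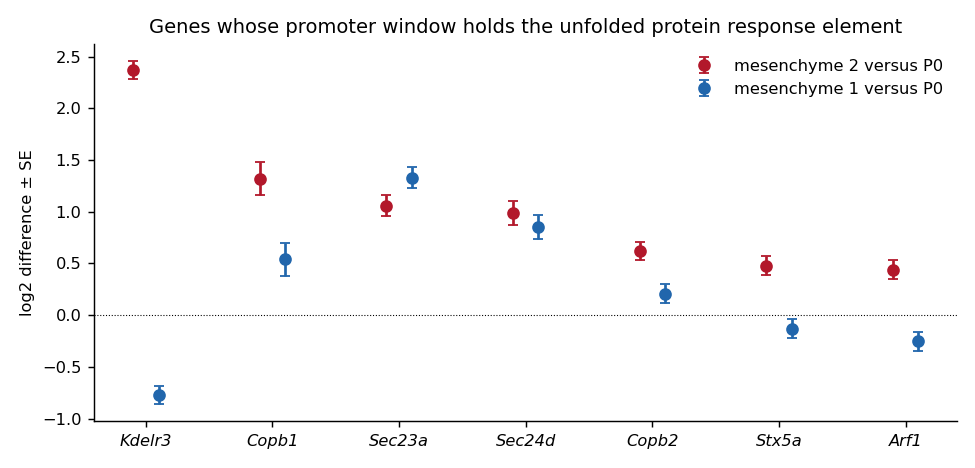
Log2 difference from P0 with its limma standard error (y axis, log2 units) for the 7 genes whose promoter window holds the unfolded protein response element, on mesenchyme 2 and on mesenchyme 1. On mesenchyme 2 all 7 lie above 0, with values of 2.37 for Kdelr3 and 0.44 for Arf1 at the ends, and on mesenchyme 1 Kdelr3 lies at -0.77 and Sec23a at 1.33.

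At the Golgi, 7 of 16 golgins and TRAPP subunits rose on mesenchyme 2 relative to P0 and 1 fell (median 0.29), and on mesenchyme 1 6 rose and 5 fell (median 0.12). The 3 called rises on mesenchyme 2 (18.8%, against 10.3% of all features) were all golgins, long coiled-coil proteins that catch vesicles. Golga5 read 418 and 401 on mesenchyme 2, 193 and 219 on mesenchyme 1 and 167 and 146 at P0, a rise of 1.39 ± 0.109 (adjusted p = 6.24e-05) on mesenchyme 2 and of 0.40 ± 0.109 on mesenchyme 1. Golga2 (GM130) read 306 and 322, 253 and 265, and 151 and 154 in the same order. Golga3 read 323 and 306, 260 and 239, and 149 and 154. Both stood above P0 on either mesenchyme, by 1.04 ± 0.0861 and 0.76 ± 0.0861 for Golga2 (a further probe gave -0.67 ± 0.114 on mesenchyme 1) and by 1.06 ± 0.0914 and 0.72 ± 0.0914 for Golga3. With each array centred on its median the mesenchyme 2 values were 0.97 and 0.99, below the limit.

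TRAPP subunits tether vesicles and activate Rab1-type GTPases. Of the 16 Golgi and tethering genes, 3 were called between the P6 cultures (18.8%, against 25.4% of all features). These 3 were TRAPP subunits. Trappc2l read 1070 and 1190 on mesenchyme 2, 411 and 443 on mesenchyme 1 and 593 and 544 at P0, and the P6 cultures differed by 1.40 ± 0.102 (adjusted p = 3.01e-05). Trappc13 ran the other way, with 101 and 85.0, 216 and 235, and 138 and 111, a difference of -1.28 ± 0.141 between the P6 cultures (adjusted p = 0.000199). Trappc3 was called at 1.07 ± 0.117 between the P6 cultures on its brightest probe, and its 3 other probes gave 0.43, 0.38 and -0.07, so that call rests on 1 probe. It was 0.92 without mesenchyme 1 replicate 1.

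SNAREs, the proteins that fuse membranes, rose in 13 of 19 genes on mesenchyme 2 and fell in 1 (Stx6, by 0.61 ± 0.0867 on its brightest probe, with -0.07 on the second), with a median of 0.67. On mesenchyme 1, 2 rose and 6 fell (median -0.22). Vamp8, an endosomal SNARE known for regulated exocytosis in glands, read 703 and 721 on mesenchyme 2, 79.8 and 79.5 on mesenchyme 1 and 176 and 201 at P0. Mesenchyme 2 lay far above P0 and mesenchyme 1 far below it: 3.79-fold higher (log2 1.92 ± 0.0969, adjusted p = 1.13e-05) and 2.36-fold lower (log2 -1.24 ± 0.0969, adjusted p = 0.000349). It was the only one of the 169 genes called in opposite directions against P0, and the P6 cultures differed 8.94-fold (log2 3.16 ± 0.0969). A second Vamp8 probe gave 1.74 ± 0.141 for mesenchyme 2 and -0.87 ± 0.141 for mesenchyme 1 against P0, the second of these under the 2-fold limit, and 2.61 ± 0.141 between the P6 cultures.

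Syntaxins of the plasma membrane and of endosomes were called as well. With Vamp8, 15.8% of the SNAREs were called higher on mesenchyme 2 relative to P0, against 10.3% of all features. Stx3, the apical plasma membrane syntaxin of epithelia, read 1012 and 1015 on mesenchyme 2, 197 and 222 on mesenchyme 1 and 265 and 257 at P0, and rose 3.88-fold on mesenchyme 2 (log2 1.96 ± 0.0943, adjusted p = 9.43e-06). Its second probe gave 1.60 ± 0.0929 there, but on mesenchyme 1 the probes disagreed, with -0.32 ± 0.0943 and 0.43 ± 0.0929. Stx7, of late endosomes, read 1198 and 1276, 398 and 393, and 480 and 466, a rise of 1.39 ± 0.0861 on mesenchyme 2 (adjusted p = 2.4e-05). Stx8 and Vamp4 passed the 2-fold limit between the P6 cultures, at 1.19 ± 0.0982 and 1.20 ± 0.0979, and rose by 0.89 and 0.77 on mesenchyme 2 relative to P0. With 16 added to every value Vamp4 gave 0.98 between the P6 cultures, under the limit. Stx7, Stx8 and Vamp8 are known partners in one late endosomal fusion complex, and on mesenchyme 1 each of the 3 fell, by 0.26, 0.30 and 1.24. Of early secretory SNAREs, Stx5a rose by 0.48 ± 0.0947 and Sec22b by 0.67 ± 0.111 on mesenchyme 2, with -0.13 ± 0.0947 and -0.30 ± 0.111 on mesenchyme 1, which did not pass the test.

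**Figure D3:**
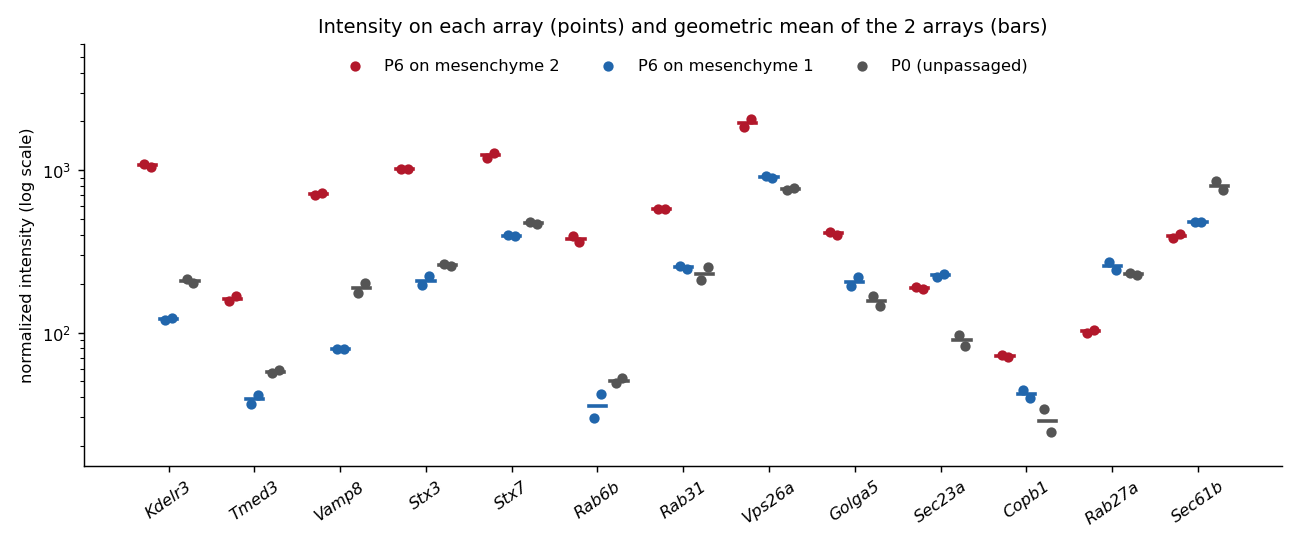
Intensity of each array (y axis, deposited intensity on a log scale) for 13 of the 21 genes called between mesenchyme 2 and P0, with points for the 2 arrays of mesenchyme 2, mesenchyme 1 and P0. Duplicates lie close together for most genes, and Kdelr3, Vamp8, Stx3 and Rab6b show the widest gaps between mesenchyme 2 and the other groups.

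Rab GTPases, which give membranes their identity, formed the largest role group, with 38 genes. On mesenchyme 2, 16 rose (42.1%, against 33.6% of all features) and 5 fell (13.2%, against 30.9%) relative to P0, with a median of 0.20. On mesenchyme 1, 5 rose (13.2%, against 23.9%) and 7 fell (18.4%, against 24.2%), with a median of -0.01. Rab6b, known from brain as the neuronal form of the Golgi GTPase Rab6, read 395 and 362 on mesenchyme 2, 29.8 and 41.9 on mesenchyme 1 and 48.6 and 52.2 at P0. Its rise on mesenchyme 2 was the largest of the 169 genes, at 7.51-fold (log2 2.91 ± 0.162, adjusted p = 1.61e-05), and the P6 cultures differed 10.7-fold. Since the mesenchyme 1 and P0 values are close to the dim end of the array, the fold depends on what is added to the intensities: the Rab6b difference on mesenchyme 2 was 2.57 with 16 added and 2.09 with 50 added, and it was called under both.

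Rab6a, the widely expressed paralogue, had the opposite order of the P6 cultures on its brightest probe only. It read 51.4 and 47.6 on mesenchyme 2, 84.1 and 94.5 on mesenchyme 1 and 32.4 and 32.0 at P0. Both P6 cultures lay above P0 and mesenchyme 1 lay highest, by 1.47 ± 0.0983 (adjusted p = 0.000244) against 0.62 ± 0.0983 on mesenchyme 2. A second Rab6a probe gave 0.19 ± 0.186 on mesenchyme 1, and the mean of both probes gave 0.83, so the call rests on 1 dim probe. For mesenchyme 2 against mesenchyme 1 the brightest probe gave -0.85, not called, and the second 0.38 ± 0.186. The order of the P6 cultures therefore depends on the probe.

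Beside Rab6b, 2 Rab genes were called higher on mesenchyme 2 and 2 lower. With Rab6b, 7.89% of the Rab genes were called higher (against 10.3% of all features) and 5.26% lower (against 8.46%). Rab31, of the route between the Golgi and endosomes, read 576 and 575 on mesenchyme 2, 258 and 248 on mesenchyme 1 and 210 and 253 at P0, a rise of 1.32 ± 0.11. Rab33b, a Golgi GTPase, read 191 and 201, 70.5 and 91.2, and 73.4 and 67.3, a rise of 1.48 ± 0.135. In both, mesenchyme 1 overlapped P0. Rab27a, which docks secretory lysosomes and melanosomes, read 100 and 104 on mesenchyme 2, 271 and 243 on mesenchyme 1 and 233 and 228 at P0, and fell by 1.18 ± 0.0935 on mesenchyme 2 (adjusted p = 6.62e-05). Rab39 read 13.2 and 12.4, 45.3 and 37.3, and 31.5 and 32.7, a fall of 1.33 ± 0.115, at intensities where adding 16 brought it to -0.74.

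Of the other Rab genes, 5 are given for their known places in the cell, and none of these 5 passed the 2-fold limit on mesenchyme 2. Rab2a, which works between the endoplasmic reticulum and the Golgi, read 2115 and 2117 on mesenchyme 2, 1353 and 1282 on mesenchyme 1 and 1167 and 1216 at P0, and rose by 0.83 ± 0.0858 on mesenchyme 2. Rab11a, of recycling endosomes, rose by 0.59 ± 0.116 there. Rab5a and Rab8a gave 0.17 ± 0.124 and 0.14 ± 0.0887 on mesenchyme 2, which did not pass the test, while on mesenchyme 1 Rab5a rose by 0.59 ± 0.124 (0.16 ± 0.0981 on its second probe) and Rab8a fell by 0.37 ± 0.0887. Rab7, of late endosomes, rose by 0.51 ± 0.162 on mesenchyme 2 on its brightest probe. On mesenchyme 1 that probe gave -0.09 ± 0.162 and its 2 other probes 1.61 ± 0.102 and 1.28 ± 0.209, so no single value stands for Rab7 there.

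Clathrin adaptors, which select cargo at the trans-Golgi network, endosomes and the plasma membrane, rose in 8 of 19 genes on mesenchyme 2 (42.1%, against 33.6% of all features) and fell in 4 (21.1%, against 30.9%). The median was 0.23, and 0 were called, against 18.7% of all features. On mesenchyme 1, 4 rose (21.1%, against 23.9%) and 6 fell (31.6%, against 24.2%), shares near those of all features. Between the P6 cultures, 6 were higher on mesenchyme 2 (31.6%, against 35.9% of all features) and 5 lower (26.3%, against 33.8%). Of the 19 genes 3 were called there (15.8%, against 25.4%), a smaller share than on the array as a whole. Ap1m2, the epithelial medium subunit of AP-1, read 221 and 247 on mesenchyme 2, 72.3 and 73.5 on mesenchyme 1 and 132 and 121 at P0, with mesenchyme 1 lowest and a P6 difference of 1.68 ± 0.0991 (adjusted p = 1.31e-05). Ap3m1 ran the other way, with 31.3 and 37.0, 79.1 and 69.9, and 42.9 and 41.3, a P6 difference of -1.13 ± 0.116. Adding 16 to every value brought that difference to -0.85, under the limit. Ap1s1 rose by 0.91 ± 0.0979 on mesenchyme 2 and Ap2m1 by 0.40 ± 0.0961, and Ap2m1 fell by 0.51 ± 0.0961 on mesenchyme 1.

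Vps proteins rose in 13 of 24 genes on mesenchyme 2, with 0 falls (median 0.34), and on mesenchyme 1 8 rose and 3 fell (median 0.20). Vps26a, a subunit of retromer, the coat that retrieves receptors from endosomes, read 1853 and 2074 on mesenchyme 2, 916 and 892 on mesenchyme 1 and 754 and 783 at P0. It rose by 1.35 ± 0.0944 on mesenchyme 2 (adjusted p = 3.95e-05), and a second probe gave 1.51 ± 0.127. On mesenchyme 1 the first probe gave 0.23 and the second 1.52 ± 0.127. Between the P6 cultures they gave 1.12 and -0.01, so that difference was seen on 1 probe only. Vps35, the retromer scaffold, gave 0.25 ± 0.0996 on mesenchyme 2, which did not pass the test, and rose by 0.47 ± 0.0996 on mesenchyme 1.

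Vps37b and Vps28 belong to ESCRT-I, which sorts ubiquitinated cargo into multivesicular bodies. Vps37b read 420 and 406 on mesenchyme 2, 171 and 188 on mesenchyme 1 and 150 and 172 at P0, a rise of 1.36 ± 0.105 on mesenchyme 2. Vps28 read 2287 and 2253, 967 and 1008, and 1593 and 1678, so the P6 cultures lay on opposite sides of P0, by 0.47 ± 0.0859 and -0.73 ± 0.0859. Vps11, of the endosomal tethers HOPS and CORVET, rose by 1.02 ± 0.1 on mesenchyme 2 and was 0.94 without P0 replicate 1. Vps72 matched the symbol pattern but is known as a chromatin protein, and it gave -0.39 ± 0.196 on mesenchyme 2. Sec14l4, a lipid-binding protein with a Sec symbol, was called lower on mesenchyme 2 (-1.51 ± 0.268) at intensities of 8.72 and 15.8 against 30.0 and 37.3 at P0.

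**Figure D4:**
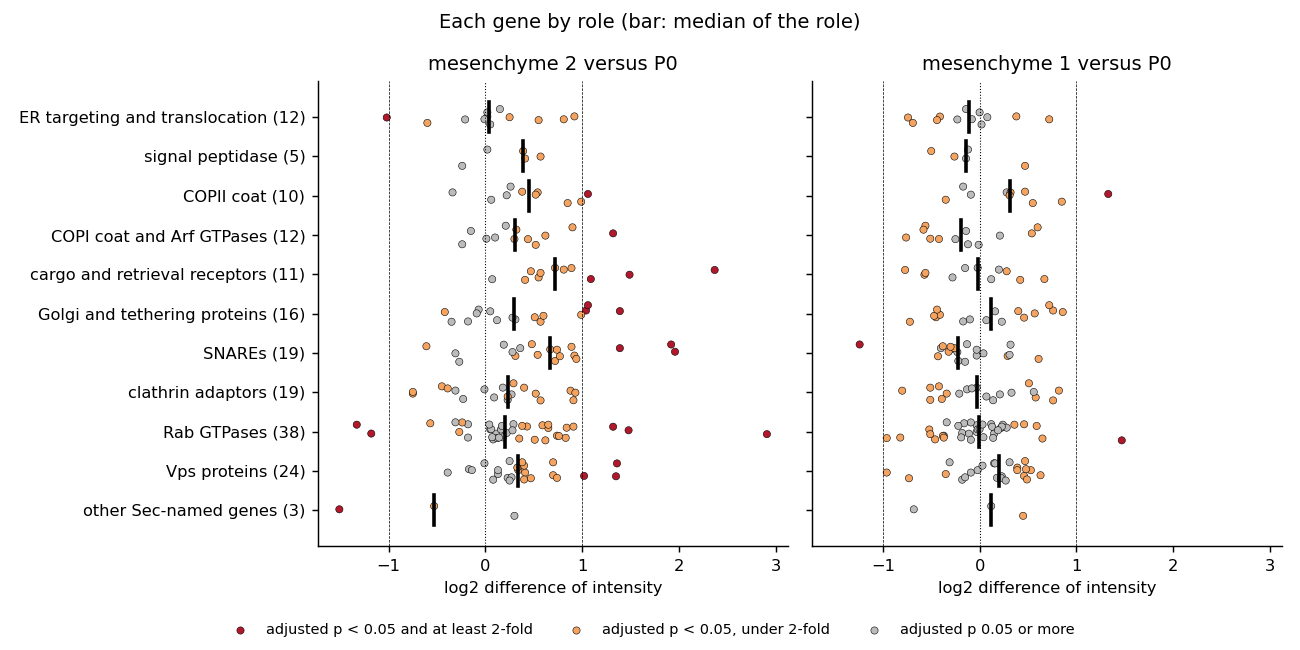
Log2 difference of each gene (points) and the median of its role group (bars), with role groups down the page, for mesenchyme 2 against P0 and mesenchyme 1 against P0 (x axes, log2 units). Medians on mesenchyme 2 run to 0.72 for cargo and retrieval receptors and 0.67 for SNAREs, and the 3 other Sec-named genes are at -0.53.

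In 14 of the 169 genes the P6 cultures lay on opposite sides of P0 with mesenchyme 2 higher (8.28%, against 6.75% of all features). Kdelr3, Tmed3, Tmed9, Vamp8, Stx3, Stx7, Stx8, Vamp4, Ap1m2, Trappc2l, Trappc3, Vps28, Rab6b and Rab24 rose on mesenchyme 2 and fell on mesenchyme 1, each at an adjusted p under 0.05 against P0, and all were called between the P6 cultures. These comparisons share the P0 arrays, so the direct comparison of the P6 cultures is the test of the difference. For Stx3 the second probe was higher than P0 on mesenchyme 1 (0.43), and for Trappc3 the fourth (0.24). Rab39 and Trappc13 had the reverse order, lower on mesenchyme 2 and higher on mesenchyme 1 (1.18%, against 5.04% of all features). With 16 added to every value, Vamp4 gave 0.98 and Rab39 -0.99 between the P6 cultures, under the limit. In both directions together the pattern held for 16 genes (9.47%), fewer than the 11.8% of all features.

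**Figure D5:**
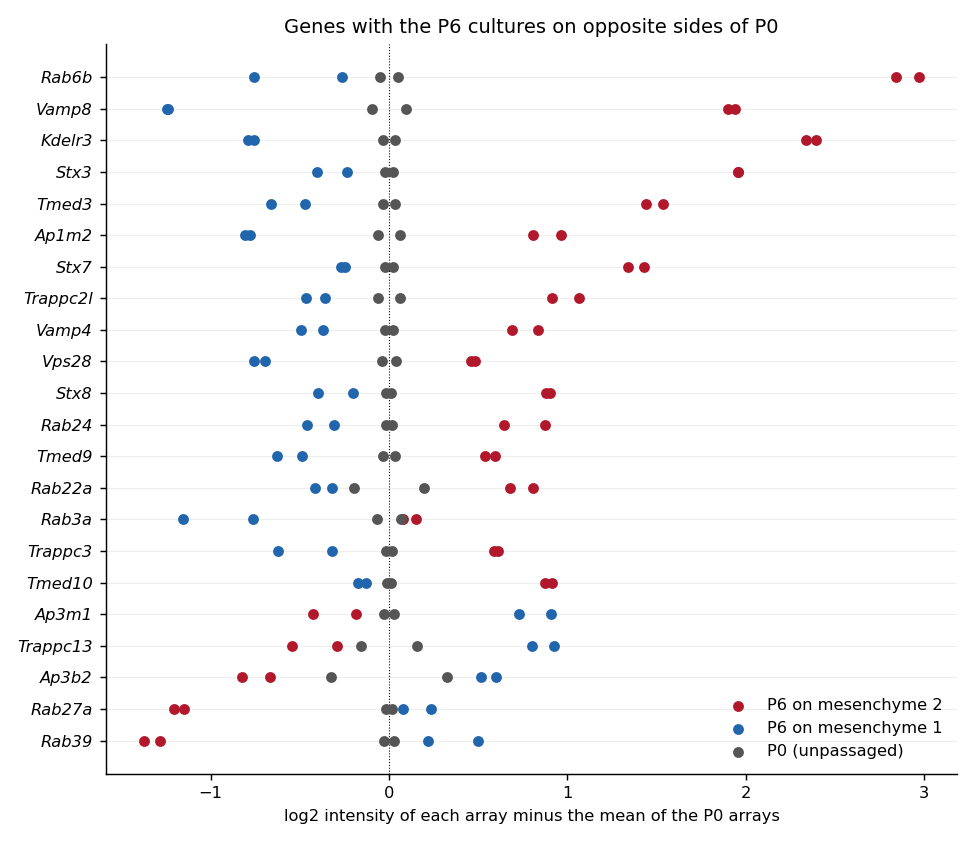
Log2 intensity of each array minus the mean of the P0 arrays (x axis, log2 units) for genes whose P6 cultures lie on opposite sides of P0, with points for mesenchyme 2, mesenchyme 1 and P0. Kdelr3, at 2.37 and -0.77, and Vamp8, at 1.92 and -1.24, have mesenchyme 2 far to the right and mesenchyme 1 to the left of P0.

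Further probes give a partial check. For the 21 genes called between mesenchyme 2 and P0, 7 had 8 further probes, of which 8 had the same sign and 5 were at least 2-fold. Between the P6 cultures, 11 called genes had 18 further probes, of which 16 had the same sign and 10 were at least 2-fold. For mesenchyme 1 against P0 the 2 further probes had the same sign and 0 were 2-fold.

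Secretory genes that the symbol pattern does not catch, were taken from a list of 107, of which 84 were measured. On mesenchyme 2, 54 rose (64.3%, against 33.6% of all features) and 5 fell (5.95%, against 30.9%) relative to P0 at an adjusted p under 0.05, with a median of 0.47. Of these, 12 were called higher (14.3%, against 10.3%) and 0 lower (against 8.46%). On mesenchyme 1, 24 rose (28.6%, against 23.9%) and 20 fell (23.8%, against 24.2%), with a median of 0.04. The 3 called higher and 2 lower there came to 5.95%, near the 5.48% of all features. Creb3, a membrane-bound transcription factor of the endoplasmic reticulum, read 690 and 679 on mesenchyme 2, 114 and 110 on mesenchyme 1 and 196 and 165 at P0, a rise of 1.93 ± 0.107 (adjusted p = 1.57e-05) and a fall of 0.68 ± 0.107. Arfgap3 and Arfgap1, which switch Arf1 off, rose by 1.59 ± 0.236 and 1.32 ± 0.104 on mesenchyme 2. So did Stt3a, a catalytic subunit of the oligosaccharyltransferase (1.38 ± 0.0822), Yipf6 (1.36 ± 0.176) and Arcn1, the delta subunit of COPI (1.24 ± 0.124). Yipf6 was dim, at 45.9 and 37.4 on mesenchyme 2 and 15.2 and 17.1 at P0, and adding 16 brought it to 0.84. Adding 50 brought Yipf6 to 0.47, Arfgap3 to 0.88, Stt3a to 0.94 and Arcn1 to 1.00, none of them called.

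Between the P6 cultures 19 of these 84 were called higher on mesenchyme 2 (22.6%, against 13.9% of all features) and 1 lower (1.19%, against 11.5%). Beside Creb3 (2.61 ± 0.107) and Arfgap3 (1.93 ± 0.236), the largest were Stxbp2, a syntaxin-binding protein (1.56 ± 0.113), Yipf3 (1.50 ± 0.0958), the SNARE Bet1l (1.48 ± 0.121) and the ESCRT-III subunit Chmp4b (1.44 ± 0.0918). Gdi2, which recycles Rab GTPases from membranes, was the gene that was lower: 73.3 and 51.6 on mesenchyme 2, 232 and 167 on mesenchyme 1 and 67.8 and 77.5 at P0. It rose by 1.44 ± 0.211 on mesenchyme 1 relative to P0, as did Exoc4 of the exocyst (1.04 ± 0.126) and Stam2 of the endosomal sorting machinery (1.04 ± 0.114). The adaptor Gga1 and the clathrin light chain Cltb fell there, by 1.58 ± 0.126 and 1.15 ± 0.174. Without mesenchyme 1 replicate 2 Cltb gave -0.86 and Stam2 0.96, and without P0 replicate 1 Exoc4 gave 0.87. Xbp1 and Hspa5, read because of the elements above, rose by 0.71 ± 0.0983 and 0.41 ± 0.0989 on mesenchyme 2, and on mesenchyme 1 Hspa5 rose by 0.43 ± 0.0989 and Xbp1 gave 0.12 ± 0.0983.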

How the data were processed

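Values are the deposited intensities of the authors' value table, which are linear, above 0 and already normalized; the submitters' processing notes name BeadStudio. Background correction, normalization and probe filter: not given in the sources used here. The table holds 11097 of 25697 listed probes. A scanner table has 12 per-sample columns whose names match no sample label, so they were not used. Through the platform annotation 10475 probes had 1 symbol, 622 had no symbol and 0 had several, and 10471 matched RefSeq GRCm38.p6 by gene identifier with 0 symbols changed.

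All 6 arrays entered 1 limma fit of log2 intensity (limma 3.58.1, R 4.3.3), with 3 residual and 3.81 prior degrees of freedom, and p-values were adjusted by Benjamini-Hochberg over 8396 features in each comparison. A gene rose or fell at an adjusted p under 0.05, and was called when the fold was also at least 2. Errors are limma standard errors. The number of arrays limits the precision. Samples were grouped by their labels.

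Members, roles and gene lists were chosen with earlier results of these data known. Named are, in each comparison, up to the 20 largest called genes without overlap between groups, the 2 brightest genes of each role, 31 of 37 fixed genes that were measured, and up to 6 rises and 6 falls among other listed genes. Trappc3, Rab3a, Rab22a, Rab24, Vps11, Ap3b2, Vps72, Sec63, Srp72, Xbp1, Hspa5 and other genes outside this rule were named after their values were seen.

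Alternatives were array centring, quantile normalization, 16 or 50 added, a mean intensity of at least 50, no fold limit, a test against a 2-fold change, the mean of a gene's probes, a replicate block and leaving out each array. Centring or 50 added together with no fold limit were added after the data were seen. The fit was tested on simulated data.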

Additional observations from a re-analysis of the deposited data

Results flagged for a closer look

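For 22 of the 169 genes both arrays of one P6 culture lay above both P0 arrays and both arrays of the other lay below them, and the direct comparison of mesenchyme 2 with mesenchyme 1, which is the limma test of that difference, was called. They were 13% of the 169 genes, against 16.2% of all features. The P0 arrays enter both changes. On mesenchyme 2 relative to mesenchyme 1, 17 were higher (10.1%, against 9.05% of all features) and 5 lower (2.96%, against 7.17%).

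The higher ones, as log2 differences between the P6 cultures, were Rab6b at 3.42, Vamp8 at 3.16, Kdelr3 at 3.14, Stx3 at 2.28, Tmed3 at 2.05, Ap1m2 at 1.68, Stx7 at 1.65 and Trappc2l at 1.40. Smaller ones were Vamp4 at 1.20, Vps28 at 1.20, Stx8 at 1.19, Rab24 at 1.14, Tmed9 at 1.13, Rab22a at 1.11, Rab3a at 1.08, Trappc3 at 1.07 and Tmed10 at 1.05. The lower ones were Rab39 at -1.69, Rab27a at -1.33, Ap3b2 at -1.30, Trappc13 at -1.28 and Ap3m1 at -1.13. With 16 added to every value, Rab39 gave -0.99, Ap3m1 -0.85, Ap3b2 -0.59, Vamp4 0.98, Rab22a 0.75 and Rab3a 0.72, all under the limit. The other flagged genes stayed called. Rab3a, an exocytic GTPase of neurons and endocrine cells, read 46.7 and 49.1 on mesenchyme 2, 26.0 and 19.8 on mesenchyme 1 and 46.2 and 42.2 at P0. It gave 0.88 without mesenchyme 1 replicate 2. Ap3b2, known as the neuronal beta subunit of AP-3, read 8.83 and 7.94, 21.3 and 20.1, and 11.2 and 17.6, at the dim end of the arrays.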

How the results depend on the processing

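The shift of the secretory genes on mesenchyme 2 kept its direction throughout, while counts at the 2-fold limit moved. Counts in this paragraph are genes called among the 169, given first for mesenchyme 2 and second for mesenchyme 1, each against P0, and last for the P6 cultures against each other, where the counts as reported were 21, 3 and 27. They were 10, 0 and 16 with 50 added, 102, 82 and 109 with no fold limit, 7, 0 and 10 by a test of changes past 2-fold, 97, 83 and 108 with centring and no fold limit, and 120, 99 and 115 with 50 added and no fold limit. With 16 added the first was 12. Leaving out 1 array gave 21 to 25, 3 to 5 and 26 to 29, the 5 coming without P0 replicate 2 or without mesenchyme 1 replicate 1. Of 11 role groups, those with a called gene numbered 9, 3 and 6 as reported, 5 in the first with 16 or with 50 added, 0 in the second with 50 added, and 4 and 0 in the first and second by a test of changes past 2-fold. They were 11 in the second and the last with no fold limit, also with centring or with 50 added, and leaving out 1 array gave 9 to 10, 3 to 4 and 6 to 7.

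For secretory genes outside the symbol pattern, 12, 5 and 20 were called as reported. With 50 added they were 4, 1 and 12, with no fold limit 59, 44 and 58, and by a test of changes past 2-fold 2, 0 and 7. Centring with no fold limit gave 55, 46 and 56, and 50 added with no fold limit 61, 52 and 64. With 16 added the second was 2, and leaving out 1 array gave 11 to 13, 3 to 6 and 19 to 21, the 3 coming without mesenchyme 1 replicate 2.

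The median log2 difference of the 169 genes between mesenchyme 2 and P0, 0.31 as reported, was 0.24 with centring, 0.27 with quantile normalization, 0.28 and 0.23 with 16 and 50 added, 0.34 above a mean intensity of 50, and 0.30 to 0.34 with 1 array left out. Between the P6 cultures, at 0.34, it was 0.25, 0.28, 0.30 and 0.24 under the first 4 of these and 0.32 to 0.34 with 1 array left out. For mesenchyme 1 against P0, at -0.02, it turned to 0.02 with the mean of all probes and ran from -0.02 to 0.00 with 1 array left out. The median of all features, 0.02 for either comparison of mesenchyme 2, turned to -0.05 (against P0) and -0.07 (against mesenchyme 1) with centring, and to -0.01 in both with quantile normalization. The causes of these changes were not tested.

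With the replicate number as a block the counts were 21, 3 and 27. Differences between replicate 1 and replicate 2 correlated across features at -0.0073 for mesenchyme 2 and P0, -0.00307 for mesenchyme 1 and P0 and 0.0107 for the P6 cultures, so the numbers do not pair the arrays. With 1 array left out, the group with a lone array was assumed to vary like the others. The arrays have no background values or detection calls mapped to samples, so folds of dim genes have no floor.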

Other observations

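Probes of one gene disagreed in sign or size for many of the 57 members with several probes. For mesenchyme 1 against P0, Ap2b1, Ap4m1, Rab1b, Stx6, Vps16 and Vps26c were among those with a further probe of opposite sign. The genes named in this paragraph were picked after their values were seen. For Copg1, a gamma subunit of COPI, the brightest probe gave a log2 difference of -0.12 for mesenchyme 1 against P0 and a second probe 1.43 ± 0.108. For Sec61a2, a second form of the channel's pore subunit, a second probe differed between the P6 cultures by -1.39 ± 0.172, against 0.03 on the brightest. For Golga2, a further probe differed by 1.50 ± 0.114 between the P6 cultures, against 0.28 on the brightest. For Rab7, a second probe differed by -1.04 ± 0.102 between the P6 cultures, against 0.60 on the brightest. Which transcripts these probes read was not tested.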
